A study of Mus musculus with 17 samples.

Results

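The genes examined here were Lepr, Ebf1, Ebf2, Ebf3, Foxc1, Kitl, Il7, Angpt1, Vcam1 and Ltbr, which are known as genes of the bone marrow stromal cells that house hematopoietic stem and progenitor cells. They were listed by name, with no threshold on a measured value but with earlier results of these data known, and they make up 10 of the 55335 genes in the count tables. All 10 passed the filter on low counts in OPCs (16207 genes tested), in SSCs (17659) and over both cell types (20238). The data are bulk RNA sequencing of 2 populations sorted from the bone fraction, that is from flushed and collagenase-digested femurs, tibias and hips. Both were CD45-, Lineage-, c-Kit-, CD71-, CD31- and CD51+. Skeletal stromal/stem cells (SSCs) were further Sca-1+ PDGFRα+, and osteoblast/osteogenic progenitor cells (OPCs) were Sca-1-. The mice were Cxcr4+/+ (WT), heterozygous (+/1013) or homozygous (1013/1013) for Cxcr4 1013, a germline knock-in of a gain-of-function truncation of the CXCL12 receptor found in WHIM syndrome, and they were described as littermate females of 8 to 12 weeks. Since every cell of a mutant mouse carried the allele, an action on the stroma and an action through other cells cannot be told apart. For each library, 3000 cells were pooled over 3 mice. Groups held 3 libraries per genotype and cell type, except 2 for 1013/1013 SSCs, which gave 9 OPC and 8 SSC libraries. No source states that pools of one group came from separate litters or days, so the p-values measure the spread between pools.

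CXCL12-abundant reticular cells carry the leptin receptor and are a main source of CXCL12, stem cell factor and interleukin-7, the signals that retain blood progenitors in the marrow and feed early lymphopoiesis. EBF and FOXC1 transcription factors maintain their identity, and EBF3 restrains them from turning into osteoblasts. Osteoblast lineage cells on the bone surface form another part of the stroma, and signalling through the lymphotoxin beta receptor is known to lower interleukin-7 in reticular cells.

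The libraries held 64099849 to 92683497 gene counts in OPCs and 44217695 to 50509592 in SSCs. A count of 3, taken as the limit of detection for counting error only, stood for 0.0324 to 0.0468 CPM (counts relative to the total of a library) in OPCs and 0.0594 to 0.0679 CPM in SSCs. Type I collagen (Col1a1 and Col1a2) made up 16.1% to 38.7% of all counts in OPCs and 0.563% to 2.78% in SSCs, and levels are therefore given as CPM scaled by the trimmed mean of M values (normalised CPM) unless stated. The labels fitted the markers, with Ly6a, which encodes Sca-1, at 0.568 to 12.4 normalised CPM in OPCs and 385.6 to 1450.0 in SSCs, and with 12 osteoblast markers summing to 170000 to 407900 CPM in OPCs and 11570 to 32440 in SSCs. Although CD45+ cells had been gated out, 20 leukocyte markers summed to 15250 CPM in WT OPC replicate 3, 12820 in 1013/1013 OPC replicate 2 and 13570 in WT SSC replicate 3, against 50.7 to 1241 CPM in the other libraries. Values without these 3 libraries are given beside several of the results. Cxcr4 itself was read at 4.47 to 19.4 normalised CPM in OPCs and at 0.11 to 1.3 in SSCs, apart from 47.3 in that WT SSC replicate 3.

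The sequences before the start of Lepr and Ltbr are shown because the former was called higher in SSCs in every genotype and the latter was not called in any. They are RefSeq promoter windows of GRCm38.p6 up to the annotated gene start, read 5′ to 3′ on the strand of the gene, chr4:101717157-101717403 (plus strand, 247 bases) for Lepr and chr6:125313886-125314135 (minus strand, 250 bases) for Ltbr. CG dinucleotides are in capitals, 10 in Lepr and 18 in Ltbr, and G and C made up 58.7% and 69.2% of the bases.
Lepr: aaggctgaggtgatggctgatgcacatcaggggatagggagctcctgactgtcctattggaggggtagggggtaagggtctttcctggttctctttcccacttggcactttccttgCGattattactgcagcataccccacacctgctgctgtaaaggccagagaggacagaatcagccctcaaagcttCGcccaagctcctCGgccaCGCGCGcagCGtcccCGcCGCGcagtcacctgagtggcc
Ltbr: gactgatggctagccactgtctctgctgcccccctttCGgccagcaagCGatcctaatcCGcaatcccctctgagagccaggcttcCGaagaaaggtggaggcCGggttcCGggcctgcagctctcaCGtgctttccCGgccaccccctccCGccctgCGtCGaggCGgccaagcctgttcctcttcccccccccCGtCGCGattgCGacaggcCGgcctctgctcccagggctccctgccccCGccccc
RefSeq promoter windows were at hand for 6 of the 10 genes, 8 windows in all. The palindromic EBF motif TCCCNNGGGA was in 0.904% and the forkhead motif TGTTTAC, on either strand, in 3.65% of all 32851 mouse windows, and 0 of the 8 windows held either. These motifs do not overlap, and these counts describe letters in short windows only.

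Higher expression in SSCs than in OPCs was the main pattern among the 10 genes. In WT mice, 4 of 10 (Lepr, Ebf1, Ebf2 and Angpt1) were called higher in SSCs, at a Benjamini-Hochberg adjusted p under 0.05 in edgeR's quasi-likelihood test and a change of at least 1.5-fold, and 0 were called lower. Of all genes tested, 11.4% were called and 5.55% were called higher in SSCs. The median log2 fold change of the 10 was 1.78, against 0.17 over all genes tested. In bulk libraries, more cells with a transcript and more transcript per cell cannot be told apart.

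Lepr (ENSMUSG00000057722, chr4:101717404-101815352 of mm10, plus strand) encodes the leptin receptor and names the Lepr+ reticular cells. It stood at 67.2, 33.2 and 39.0 normalised CPM in the 3 WT OPC libraries and at 255.4, 233.5 and 143.2 in the 3 WT SSC libraries. Every SSC library was above every OPC library, here and over all genotypes (33.2 to 71.6 in 9 OPC against 143.2 to 255.4 in 8 SSC libraries). Its level was 4.53-fold higher in WT SSCs (log2 fold change 2.18, SE 0.33, adjusted p = 0.00108), 3.92-fold higher in +/1013 SSCs (1.97, SE 0.33, adjusted p = 0.00153) and 4.13-fold higher in 1013/1013 SSCs (2.05, SE 0.35, adjusted p = 0.00218). Of the 10, Lepr had the cell type difference that varied least over the genotypes.

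The 3 early B cell factors differed in size of effect. Ebf1 (ENSMUSG00000057098, chr11:44617317-45008091, plus strand), a transcription factor of B cells, adipocyte and reticular lineages, was at 25.4, 8.66 and 22.8 normalised CPM in WT OPCs and at 106.2, 112.5 and 83.4 in WT SSCs. The libraries of the cell types did not overlap in any genotype, and Ebf1 was 5.31-fold higher in WT (adjusted p = 0.00219), 7.94-fold higher in +/1013 (adjusted p = 0.000418) and 8.11-fold higher in 1013/1013 SSCs (adjusted p = 0.000681). Ebf2 (ENSMUSG00000022053, chr14:67233292-67430918, plus strand), known from early osteoblast and brown fat progenitors, was low in OPCs, at 4.32, 0.146 and 1.70 normalised CPM in WT (318, 9 and 81 counts), and at 53.4, 42.2 and 47.0 in WT SSCs. This was the largest difference among the 10, 23.0-fold in WT (log2 4.53, SE 0.91, adjusted p = 0.00562), 34.7-fold in +/1013 (log2 5.12, SE 0.93, adjusted p = 0.00267) and 91.4-fold in 1013/1013 mice (log2 6.51, SE 1.02, adjusted p = 0.00108). Ebf3 (ENSMUSG00000010476, chr7:137193673-137314445, minus strand), needed in reticular cells to keep the marrow cavity free of bone, was scarce in both, at 5.32, 2.37 and 0.230 in WT OPCs and 7.46, 8.01 and 5.08 in WT SSCs. Those groups overlapped by a small margin, which ended on plain CPM (0.169 to 4.59 against 7.21 to 11.0), and Ebf3 was not called in any genotype. In 1013/1013 mice, where its OPC libraries (0.648 to 2.08) lay below its SSC libraries (6.68 and 12.6), the log2 fold change was 3.05 (SE 1.06, adjusted p = 0.0760).

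Foxc1 (ENSMUSG00000050295, chr13:31806633-31812476, plus strand), a forkhead factor required for the formation of reticular cells, was expressed in both cell types. It reached 48.6, 44.4 and 26.6 normalised CPM in WT OPCs and 86.4, 79.3 and 51.2 in WT SSCs, which did not overlap. The log2 fold change of 0.86 (SE 0.40) did not pass (adjusted p = 0.185). In mutant mice the cell types overlapped, with 36.6 to 49.4 in OPCs against 27.0 to 45.4 in SSCs of +/1013 and 46.9 to 105.4 against 32.5 and 93.5 in 1013/1013 mice.

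**Figure D1:**
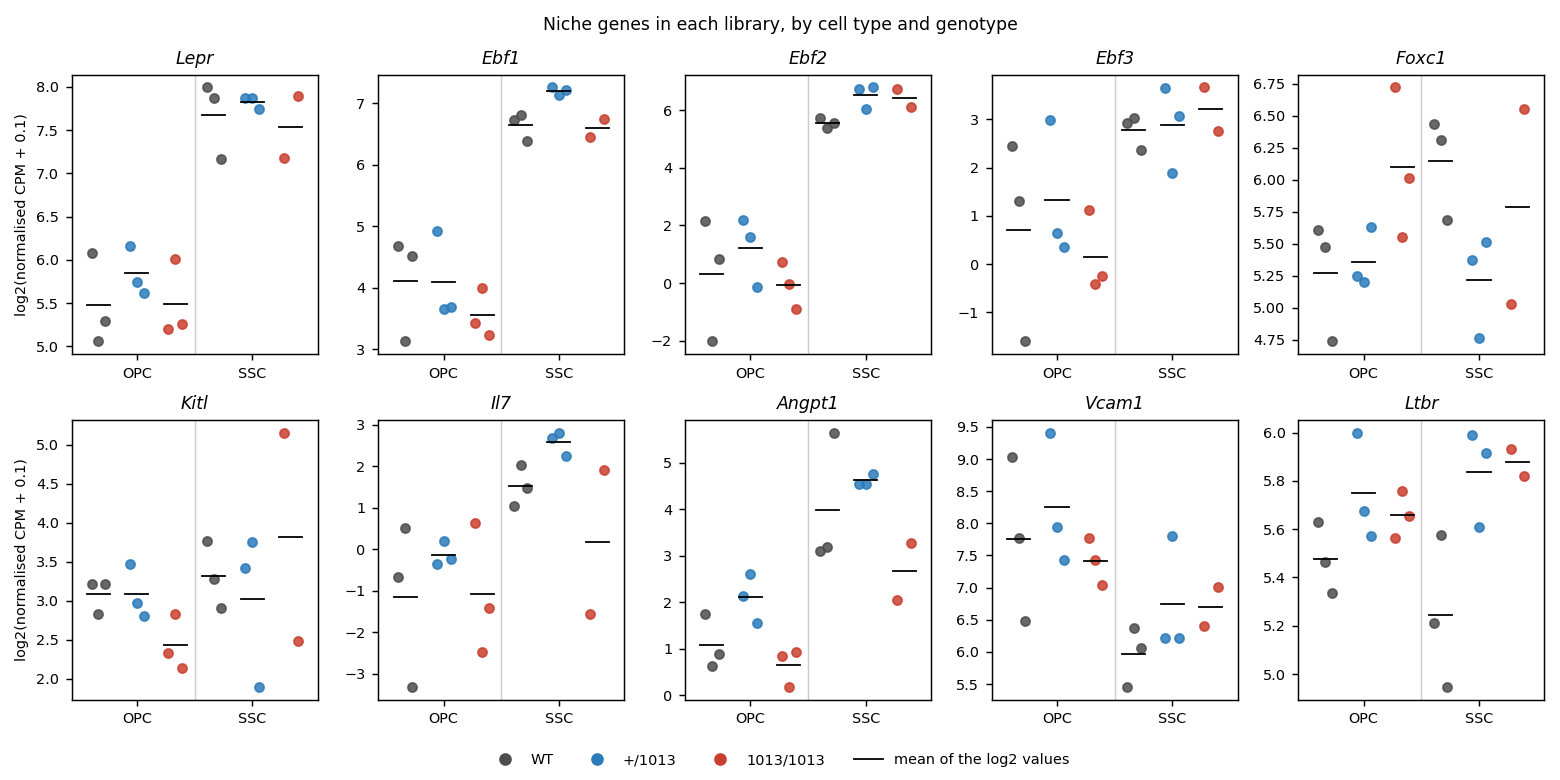
Level of each gene in every library, as log2 of the normalised CPM plus a small constant (vertical axis, a different range in each panel), for OPCs on the left and SSCs on the right of the grey line. Points are libraries coloured by genotype and black lines are means of the log2 values; Lepr, Ebf1 and Ebf2 form separate bands for the cell types, whereas Kitl and Ltbr overlap, apart from a high Kitl point of 1013/1013 SSC replicate 1 and the Ltbr libraries of 1013/1013 mice.

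Among the secreted factors, Angpt1 alone was called. Angpt1 (ENSMUSG00000022309, chr15:42424723-42676977, minus strand) encodes angiopoietin-1, the ligand of the receptor TIE2 on endothelial and blood stem cells. Its WT OPC libraries were at 3.25, 1.45 and 1.76 normalised CPM and its WT SSC libraries at 8.54, 9.07 and 49.9. The SSC libraries all lay above the OPC libraries, and the highest was the leukocyte-rich replicate 3. The difference was 10.5-fold in WT (log2 3.39, SE 0.68, adjusted p = 0.00555) and 5.60-fold in +/1013 mice (log2 2.49, SE 0.65, adjusted p = 0.0230). In 1013/1013 mice the 4.55-fold difference missed the threshold (log2 2.19, SE 0.69, adjusted p = 0.0523). Without the leukocyte-rich libraries the WT log2 fold change was 1.91 (SE 0.54) and was no longer called (adjusted p = 0.0694), and the 1013/1013 one was 1.98 (SE 0.54) and was called.

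Kitl (ENSMUSG00000019966, chr10:100015630-100100416, plus strand) encodes stem cell factor, the ligand of c-Kit that blood stem cells need. It was at 9.15, 7.02 and 9.17 normalised CPM in WT OPCs and at 13.5, 9.63 and 7.42 in WT SSCs, which overlapped. On plain CPM the WT groups did not overlap, at 5.59 to 7.90 against 10.5 to 17.6, and the ratio of means was 2.05. In +/1013 mice the ranges also overlapped, at 6.91 to 11.0 in OPCs and 3.61 to 13.4 in SSCs. In 1013/1013 mice the OPC libraries were at 4.94, 6.98 and 4.31 and the SSC libraries at 35.5 and 5.51, so that the log2 fold change of 1.92 (SE 0.64, adjusted p = 0.0641) rested on SSC replicate 1. With that library as the only 1013/1013 SSC library, on the assumption that it varied like the other groups, the value was 2.76. With replicate 2 alone it was 0.03.

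Il7 (ENSMUSG00000040329, chr3:7569994-7613760, minus strand), which encodes the cytokine for B and T cell precursors, was the scarcest of the 10. WT OPC libraries held 39, 81 and 0 counts (0.529, 1.31 and 0 normalised CPM) and WT SSC libraries 127, 266 and 169 counts (1.97, 3.98 and 2.67). Groups did not overlap in WT nor in +/1013 mice, where OPCs were at 0.676 to 1.05 and SSCs at 4.61 to 6.84. Neither difference passed, with log2 fold changes of 2.22 (SE 1.37, adjusted p = 0.317) and 2.84 (SE 1.40, adjusted p = 0.206). Without the leukocyte-rich libraries, among them the OPC library with 0 counts, the WT value was 1.69 (SE 1.15, adjusted p = 0.444).

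Vcam1 went the other way. Vcam1 (ENSMUSG00000027962, chr3:116109949-116129688, minus strand) encodes a surface protein that binds the integrin VLA-4 of blood cells and is used to sort reticular cells. It was at 521.9, 217.4 and 89.6 normalised CPM in WT OPCs and at 43.8, 82.8 and 67.0 in WT SSCs, and each OPC library was above each SSC library, although on plain CPM they overlapped (65.8 to 450.5 against 57.0 to 113.7). The log2 fold change was -2.10 (SE 0.66, adjusted p = 0.0546) in WT and -1.56 (SE 0.64, adjusted p = 0.135) in +/1013 mice, neither called. DESeq2 called Vcam1 in both, and in WT it was called in 6 of 15 alternative analyses. Without the leukocyte-rich libraries the WT value was -2.55 (SE 0.78, adjusted p = 0.0935). In 1013/1013 mice OPCs were at 132.2 to 217.7 and SSCs at 84.5 and 128.8, again without overlap, which on plain CPM they had.

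Ltbr (ENSMUSG00000030339, chr6:125306571-125313885, minus strand), the lymphotoxin beta receptor, was not called between the cell types in any genotype. It stood at 49.5, 44.0 and 40.3 normalised CPM in WT OPCs and 37.0, 47.5 and 30.7 in WT SSCs, and over all genotypes at 40.3 to 63.8 in OPCs and 30.7 to 63.5 in SSCs. In 1013/1013 mice the groups did not overlap, at 47.2 to 54.0 in OPCs and 61.0 and 56.5 in SSCs (log2 fold change 0.22, SE 0.21, adjusted p = 0.502). The WT direction depended on the scale, with a log2 fold change of -0.22 on normalised CPM and a ratio of 1.46 on plain CPM, where all WT SSC libraries (43.7 to 65.3) lay above all WT OPC libraries (29.6 to 42.7).

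**Figure D2:**
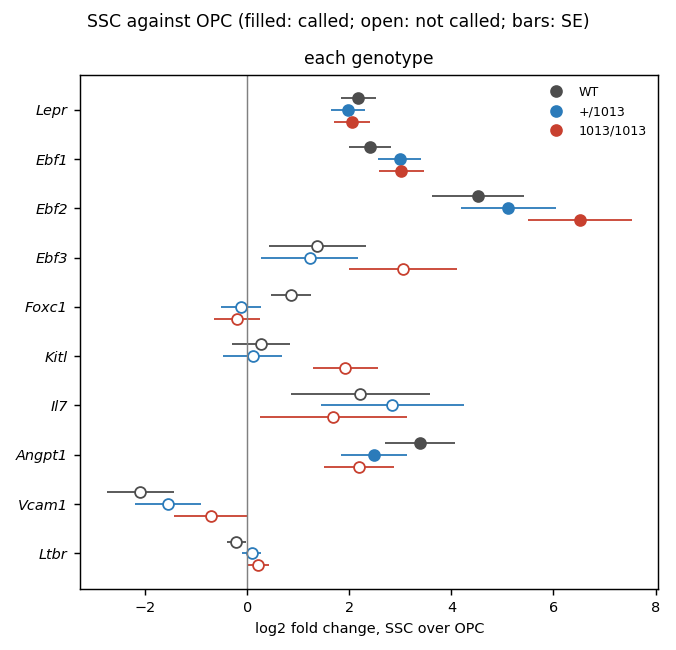
Log2 fold change of SSCs over OPCs (horizontal axis) with its standard error for each gene in WT (grey), +/1013 (blue) and 1013/1013 mice (red). Filled points were called and open points were not; Lepr, Ebf1 and Ebf2 are filled in all genotypes and lie between 1.97 and 6.51, and Vcam1 lies below 0.

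The same comparison in mutant mice called 4 of 10 in +/1013 (Lepr, Ebf1, Ebf2 and Angpt1; 12.5% of all genes were called and 6.44% called higher in SSCs) and 3 of 10 in 1013/1013 mice (Lepr, Ebf1 and Ebf2; 13.1% and 6.94%). DESeq2 called 6 of 10 in 1013/1013 mice, with Ebf3, Kitl and Angpt1 in addition, and 4736 of all 20238 genes tested. Without the leukocyte-rich libraries 2 of 10 were called in WT (Lepr and Ebf1), since Ebf2 (log2 4.41, SE 1.22, adjusted p = 0.0656) and Angpt1 missed the threshold. That fit called 1020 of all 19085 genes tested. Counting genes whose libraries did not overlap between the cell types, there were 7 of 10 in WT (37.9% of all genes), 5 in +/1013 (35.1%) and 7 in 1013/1013 mice (40.2%). Of these, Vcam1 in WT and 1013/1013 mice was the one that lay lower in SSCs. On plain CPM there were 9 of 10 in WT (48.1% of all genes), 5 in +/1013 (36.6%) and 6 in 1013/1013 mice (40.5%), all higher in SSCs.

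To compare genes with each other, counts were scaled by exon length and library total (TPM). In WT SSCs, Lepr led with 143.6 ± 37.2 TPM (SD, n = 3), followed by Ltbr (78.9 ± 18.7), Foxc1 (59.5 ± 13.9), Ebf1 (49.8 ± 7.40), Vcam1 (35.4 ± 11.9), Ebf2 (33.0 ± 2.58), Angpt1 (21.2 ± 22.8), Kitl (8.25 ± 2.14), Ebf3 (3.58 ± 0.797) and Il7 (2.47 ± 0.955). Neighbours in this order differed by more than the sum of their SDs between Lepr and Ltbr and between Kitl and Ebf3, and by less elsewhere. In WT OPCs the order began with Vcam1 (110.0 ± 95.0), Ltbr (64.0 ± 13.6), Foxc1 (23.4 ± 9.02) and Lepr (22.5 ± 10.7) and ended with Il7 (0.385 ± 0.408). The SD of Vcam1 there was nearly as large as its mean, and its lead over Ltbr was within that spread. With the longest transcript as length, Vcam1 moved to 59.9 TPM in WT SSCs and from the fifth to the fourth place, Ebf1 rose to the third and Foxc1 went from the third to the fifth, while in WT OPCs Lepr and Foxc1 changed places.

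The question put to the genotypes was whether the niche genes changed with the Cxcr4 1013 allele within a cell type. None of the 10 was called in OPCs of +/1013 mice (0 of 10, against 0.0% of all genes) or of 1013/1013 mice (0 of 10, against 0.00617%). In +/1013 OPCs, log2 fold changes of the 10 ranged from -0.04 to 1.03, the smallest unadjusted p was 0.0974, and the libraries of each gene overlapped WT (5.28% of all genes did not). DESeq2 called 0 of the 10 in either comparison, and 58 and 42 of all 16207 genes tested.

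In 1013/1013 OPCs 1 of the 10 had an unadjusted p under 0.05, namely Foxc1. Its libraries were at 105.4, 46.9 and 64.4 normalised CPM against 48.6, 44.4 and 26.6 in WT, a log2 fold change of 0.85 (SE 0.34, adjusted p = 1.00). The groups overlapped, since replicate 2 lay between WT libraries. That replicate and the lowest WT library were leukocyte-rich. Without them, and so with fewer libraries in each group, the log2 fold change was 0.87 (SE 0.29, adjusted p = 0.937). The log2 fold change of Vcam1 was -0.66 (SE 0.67) with all libraries and -1.08 (SE 0.72) without those. Kitl was the gene without overlap, 6.98 at most against 7.02 at least in WT, a log2 fold change of -0.65 (SE 0.33, adjusted p = 1.00), while 7.61% of all genes did not overlap. Between 1013/1013 and +/1013 OPCs 0 of 10 were called (0.0% of all genes). Angpt1 was at 1.69, 1.03 and 1.79 in 1013/1013 and 4.30, 6.04 and 2.83 in +/1013 OPCs, which did not overlap (7.34% of all genes), with a log2 fold change of -1.54 (SE 0.56, adjusted p = 0.999).

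In SSCs none of the 10 was called in +/1013 (0 of 10, against 0.0736% of all genes) or in 1013/1013 mice (0 of 10, against 0.0%), while 4 of 10 in +/1013 and 2 of 10 in 1013/1013 mice had unadjusted p-values under 0.05. Over all genes the shares were 17.3% and 18.3%, against 2.04% and 3.38% in OPCs. These comparisons share the WT libraries. Over all genes, the median was -0.11 and -0.23 on the log2 scale and moved to -0.04 and -0.16 with upper-quartile scaling, so that values near these are not apart from the bulk of genes. Other measures separated every WT SSC library from every mutant one. Osteoblast markers (12 genes, none at 0 in any of these groups) summed to 25670 to 32440 CPM in WT, 12510 to 14490 in +/1013 and 11570 to 16070 in 1013/1013 SSCs. Genes with a count numbered 21449 to 22599 in WT, 17808 to 19227 in +/1013 and 15748 to 19222 in 1013/1013 SSCs, and reads on no gene made up 3.68% to 4.15% in WT and at most 1.79% and 2.69% in +/1013 and 1013/1013 SSCs. Their part in the genotype differences of SSCs that follow was not tested.

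Like these measures, Ebf2 set all mutant SSC libraries apart from WT. SSC libraries were at 107.8, 65.3 and 111.6 normalised CPM in +/1013 and 108.2 and 69.3 in 1013/1013 mice, all above the WT values of 53.4, 42.2 and 47.0. The log2 fold changes were 0.98 (SE 0.27, adjusted p = 0.166) and 0.92 (SE 0.30, adjusted p = 0.190). DESeq2 called it in +/1013 SSCs (log2 0.92, adjusted p = 0.0427), where it called 1302 of all 17659 genes tested. Ltbr showed the same order, at 63.5, 48.7 and 60.2 in +/1013 and 61.0 and 56.5 in 1013/1013 SSCs against 37.0, 47.5 and 30.7 in WT. Again no mutant library overlapped WT on normalised CPM, and log2 fold changes were 0.56 (SE 0.21, adjusted p = 0.234) and 0.63 (SE 0.23, adjusted p = 0.221). On plain CPM, Ltbr in replicate 2 of +/1013 (52.24) and of 1013/1013 SSCs (60.05) lay within the WT range (43.66 to 65.31).

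Ebf1 was at 153.1, 140.5 and 148.0 in +/1013 SSCs, above the 106.2, 112.5 and 83.4 of WT (log2 0.53, SE 0.17, adjusted p = 0.194), but at 87.2 and 107.3 in 1013/1013 SSCs, within the WT range. Foxc1 lay below WT in +/1013 SSCs, at 41.4, 27.0 and 45.4 against 86.4, 79.3 and 51.2 (log2 -0.95, SE 0.40, adjusted p = 0.281), and at 32.5 and 93.5 in 1013/1013 SSCs. For both, on normalised CPM, the heterozygous libraries stood apart from WT and the homozygous ones did not. On plain CPM this held for Foxc1 but not for Ebf1. Ebf1 in +/1013 SSCs (150.9 to 180.1 CPM) then overlapped WT (118.5 to 154.5). Its 1013/1013 libraries (107.6 and 114.1 CPM) lay below WT.

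Il7 was at 6.30, 6.84 and 4.61 normalised CPM in +/1013 SSCs, above all WT libraries (log2 1.02, SE 0.88, adjusted p = 0.627). It was at 0.238 and 3.67 in the 1013/1013 libraries, which held 13 and 197 counts, the former below and the latter within the WT range. Vcam1 was at 74.2, 223.0 and 74.3 in +/1013 and at 84.5 and 128.8 in 1013/1013 SSCs, the latter both above the highest WT library (82.8) (log2 0.73, SE 0.52, adjusted p = 0.463). On normalised CPM, libraries did not overlap WT for 5 of 10 genes in +/1013 SSCs (31.2% of all genes). For 1013/1013 SSCs it was 3 of 10 (40.7%). On plain CPM, Il7 in +/1013 (5.37 to 7.415) and Vcam1 in 1013/1013 SSCs (104.3 and 136.9) overlapped WT (2.56 to 5.47 and 57.0 to 113.7). Ebf2 (higher) and Foxc1 (lower) stayed apart from WT in +/1013 SSCs on plain CPM. In 1013/1013 SSCs, Ebf2 lay above and Ebf1 and Angpt1 below every WT library on that scale. Shares over all genes were not counted there. Leukocyte markers summed to 344.9 to 13570 CPM in WT, 54.1 to 155.3 in +/1013 and 586.5 to 1241 in 1013/1013 SSCs. They thus lay below WT in +/1013 and within the WT range in 1013/1013 SSCs, and their part was not tested. Without WT replicate 3, the richest of them, the log2 fold changes in +/1013 SSCs were 0.98 (SE 0.33) for Ebf2, 0.42 (SE 0.17) for Ebf1 and -1.14 (SE 0.43) for Foxc1, and those of Ltbr were 0.43 (SE 0.21) in +/1013 and 0.50 (SE 0.23) in 1013/1013 SSCs, none of them called. Angpt1 was the gene that this library decided. Its +/1013 SSC libraries, at 23.4, 23.3 and 27.1 normalised CPM, lay above 2 of the WT libraries and below replicate 3, so that the log2 fold change was 0.09 (SE 0.71) with it and 1.47 (SE 0.41, adjusted p = 0.341) without it. For 1013/1013 against WT SSCs the log2 fold change of Angpt1 was -1.73 (SE 0.84, adjusted p = 0.315) with replicate 3. Without it the value was -0.35 (SE 0.43, adjusted p = 0.732).

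The 2 libraries of 1013/1013 SSCs lay far apart for several of the 10. Kitl was at 35.5 and 5.51, Il7 at 0.238 and 3.67, Foxc1 at 32.5 and 93.5 and Angpt1 at 4.05 and 9.64 normalised CPM in replicates 1 and 2. Against +/1013 SSCs, 0 of 10 were called (0.0% of all genes). Ebf1, Il7 and Angpt1 lay lower in both 1013/1013 libraries than in every +/1013 library (15.9% of all genes did not overlap), with log2 fold changes of -0.57 (SE 0.19, adjusted p = 0.788), -1.59 (SE 1.04, adjusted p = 0.793) and -1.82 (SE 0.85, adjusted p = 0.788). When replicate 1 was the only 1013/1013 SSC library, the log2 fold change of Il7 was -4.62 against +/1013 and -3.61 against WT.

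**Figure D3:**
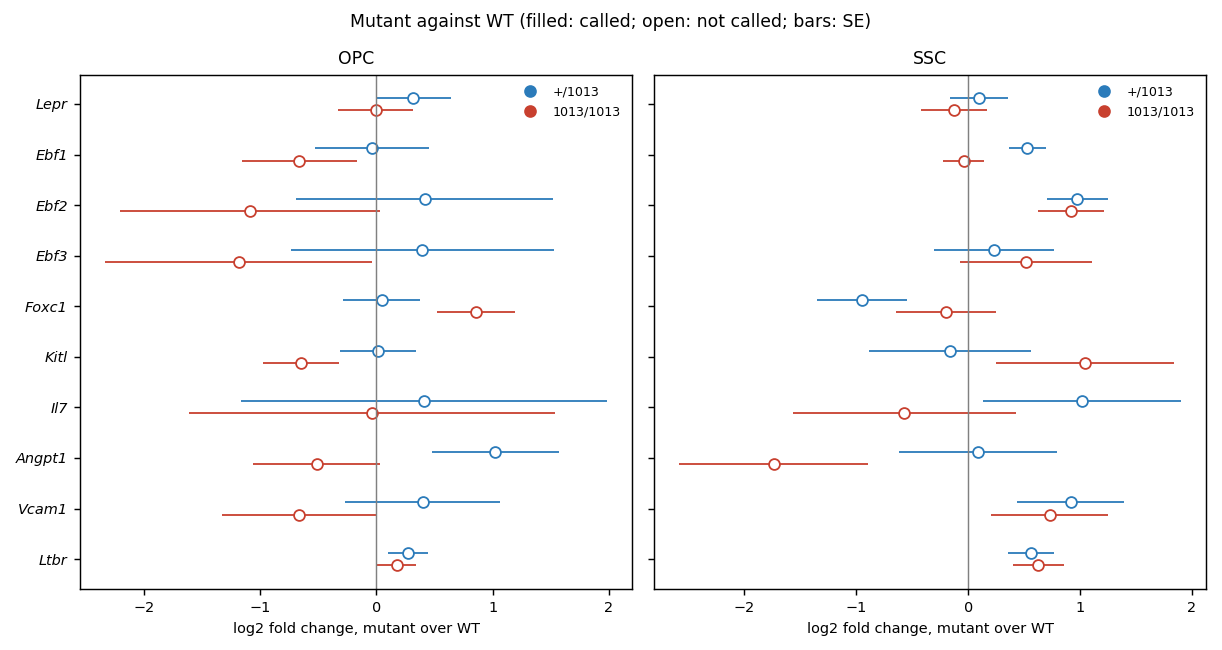
Log2 fold change over WT (horizontal axis) with its standard error in OPCs (left) and SSCs (right) for +/1013 (blue) and 1013/1013 mice (red). All points are open because none was called; in SSCs, Ebf2 (0.98 and 0.92) and Ltbr (0.56 and 0.63) lie to the right of 0 in both genotypes.

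Whether an allele effect differed between SSCs and OPCs was tested as an interaction over all libraries. For +/1013, 0 of 10 were called (0.084% of all genes) and the differences ranged from -0.98 to 0.62 on the log2 scale. For 1013/1013, 0 of 10 were called (0.153% of all genes), with differences from -1.20 to 1.99. The lowest, that of Angpt1, was 0.07 (SE 0.73) without the leukocyte-rich libraries. The smallest unadjusted p-values of the 10 were 0.102 and 0.0755, so a genotype effect that differed between the cell types was not shown for these genes.

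Within OPCs, several of the genes were high or low in the same pools. The +/1013 OPC replicate 1 had the highest level of the 9 OPC libraries for 7 of 10 genes (Lepr, Ebf1, Ebf2, Ebf3, Kitl, Vcam1 and Ltbr) and was among the top 2 for 8 of 10. WT OPC replicate 1 was among the top 2 for 5 of 10, and WT OPC replicate 3, the OPC library with the highest leukocyte marker sum, was the lowest for 5 of 10. Cxcl12, the chemokine that gives CXCL12-abundant reticular cells their name and is not one of the 10, was also highest in that +/1013 library, at 315.0 normalised CPM against 30.3 to 229.9 in the other OPC libraries. The same library had the highest sums of endothelial (86.3 CPM, the others 4.47 to 28.0) and mural markers (1468 CPM, the others 195.0 to 1069) among OPC libraries, at 276100 CPM of osteoblast markers. The part of these other cells and of leukocytes in the levels was not tested. In SSCs no library led for more than 2 of the 10. The share of all genes with their highest level in a given library was not counted. These orders are therefore not shown to be particular to the 10 genes.

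**Figure D4:**
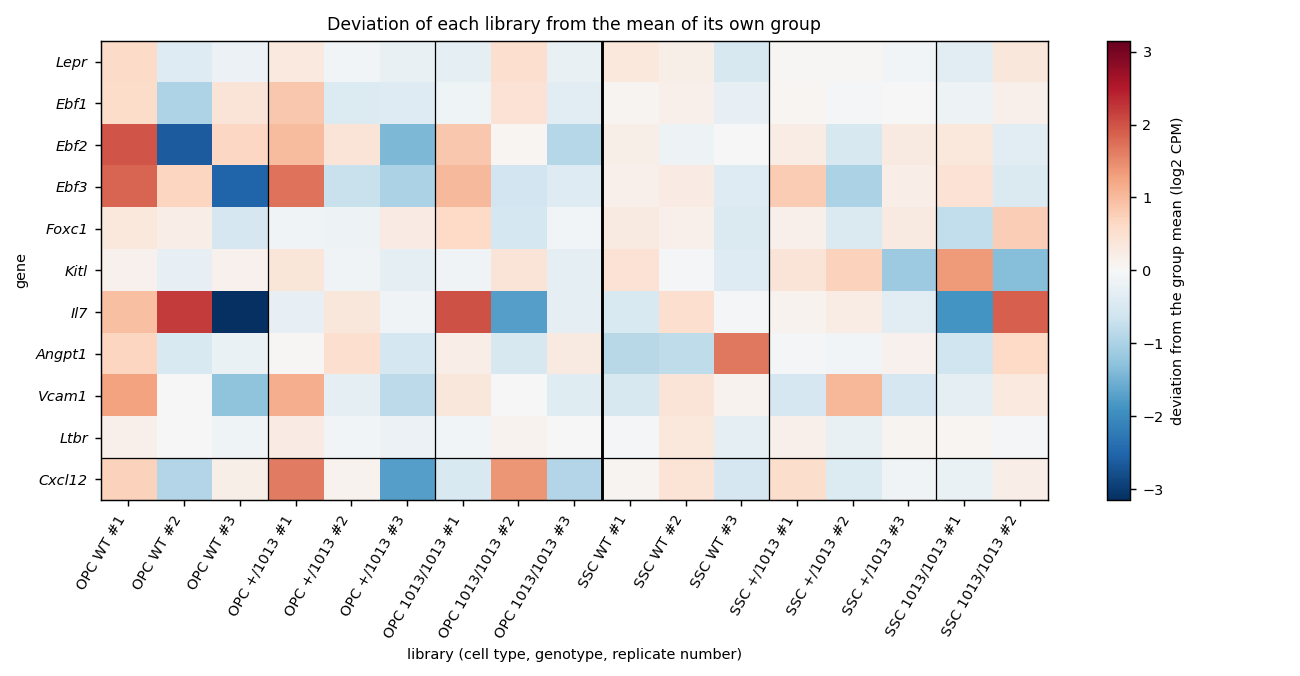
Deviation of each library from the mean of its own group (log2 CPM, red above and blue below), for the 10 genes and Cxcl12 in rows and the 17 libraries in columns, with OPCs left and SSCs right of the thick line. Replicate 1 of each OPC genotype is red for Ebf2, Ebf3 and Vcam1, Il7 is blue in WT OPC replicate 3, where it had 0 counts, and Angpt1 is red in WT SSC replicate 3.

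Likeness of pattern was measured as the root mean square difference of centred log2 CPM over the 17 libraries, which differ in cell type and depth, and it is a description only. Among the 10, the closest pair was Lepr and Ebf1 (0.545), followed by Foxc1 and Ltbr (0.681) and Kitl and Ltbr (0.763), and the most distant was Ebf2 and Vcam1 (3.71). Of 13032 genes that averaged 1 CPM or more, the 3 most like Lepr were Rbpj (0.271), the transcription factor of Notch signalling, Cast (0.316) and Tax1bp3 (0.318). Those most like Ebf1 were Pdlim1 (0.335), Rab7b (0.360) and the mesenchymal homeobox gene Prrx2 (0.369), and those most like Ebf2 were the microfibril gene Mfap5 (0.679), Cygb (0.696) and the complement gene Cfb (0.753). Ltbr had the closest matches, Dctn2 (0.151), Chmp6 (0.161) and Drg2 (0.164), and Il7 the loosest, from Tcf20 (0.969) to Zc3h6 (1.02). The nearest genes were Cbx7 for Ebf3 (0.571), Atp2a2 for Foxc1 (0.365), Zfp120 for Kitl (0.473), Dnajb6 for Angpt1 (0.827) and Pxdc1 for Vcam1 (0.522).

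Other reticular cell genes followed the direction of Lepr and the EBF genes in part. Of 24 such genes, 7 were called higher and 1 lower in WT SSCs, with a median log2 fold change of 1.49 (0.17 over all genes), and their sum was 832.7 to 3484 CPM in OPCs and 5544 to 9792 in SSCs. Among the 7 was Pdgfra (1.85, SE 0.29), whose protein was a gate of the sort, so its rise follows from the sort. It also counts in the sums. Igfbp5 (3.32, SE 0.61), Cxcl14 (2.53, SE 0.49) and Pdgfrb (2.35, SE 0.58) were the largest rises, and Mme (-1.02, SE 0.29) was the fall. Cxcl12 was at 30.3 to 315.0 normalised CPM in OPCs and 350.1 to 1642 in SSCs and was called in +/1013 (log2 2.94, SE 0.78, adjusted p = 0.0248) and 1013/1013 mice (3.04, SE 0.83, adjusted p = 0.0280) but not in WT (2.37, SE 0.76, adjusted p = 0.0613). Adipoq, which marks marrow reticular cells with adipocyte features, was scarce in both, with medians of 1.95 in OPCs and 1.91 in SSCs. In +/1013 and 1013/1013 mice the list gave 8 of 24 higher, Pdgfra among them in both, with 0 and 1 lower.

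Of 22 other niche factors, 21 were tested and 7 were called higher and 3 lower in WT SSCs. Flt3l (3.70, SE 0.97), Icam1 (3.35, SE 0.58) and Igf1 (2.61, SE 0.43) led the former. Cdh2 (-5.12, SE 1.04), the osteoblast matrix gene Spp1 (-2.87, SE 0.52) and Tgfb1 (-1.56, SE 0.32) made up the latter. In mutants 8 and 9 were called higher and 3 and 2 lower.

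The partners of the 10 in signalling were mostly at low levels in these stromal cells. Of 14 receptors and ligands, 13 were tested, and 0 were called higher and 1 lower in WT SSCs, Angpt2 (-1.88, SE 0.43), the antagonist of angiopoietin-1. Lep, which encodes leptin, had 0 counts in all 17 libraries, which is under the limit of detection given above. Kit and Il7r, the receptors for stem cell factor and interleukin-7, had medians of 0.0487 and 0 normalised CPM in OPCs and 1.09 and 0.00873 in SSCs, and Ltb, a ligand of Ltbr, had 0.487 and 0.530. Tek, the receptor for angiopoietin-1, ranged from 1.21 to 16.2 in OPCs and from 15.1 to 86.6 in SSCs and was called in 1013/1013 mice (log2 3.71, SE 0.90, adjusted p = 0.0156), where endothelial markers other than Tek summed to 100.4 and 36.9 CPM in SSCs and 4.43 to 24.8 in OPCs. In +/1013 mice 0 were called higher and 1 lower, and in 1013/1013 mice 1 higher and 0 lower.

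Downstream of Ltbr, 11 of 14 genes of the lymphotoxin pathway were tested. In WT SSCs 4 were called higher and 0 lower. Cxcl13 (10.3, SE 2.74, at a mean of only 1.70 CPM), Icam1 and the kinase gene Chuk (1.71, SE 0.43) led them. In 1013/1013 mice 2 were called in each direction, with Icam1 (4.17, SE 0.63) and Nfkb2 (1.11, SE 0.34) higher and Birc2 (-1.20, SE 0.31) and Traf2 (-1.03, SE 0.25) lower. In +/1013 mice 2 were higher, Cxcl13 (11.7, SE 2.84, at a mean of 3.89 CPM) and Icam1 (4.75, SE 0.62), and 0 lower. Of 10 genes of leptin receptor signalling, 2 were called higher in WT SSCs, Stat3 (0.82, SE 0.21) and Leprot (0.59, SE 0.18), which lies beside Lepr, and 1 in each mutant genotype, Leprot again, with 0 lower throughout. Of 4 relatives or partners of the transcription factors, Zfp521 (2.51, SE 0.29) and Zfp423 (1.71, SE 0.33), zinc finger proteins that bind EBF factors, were called higher in WT SSCs. Zfp521 was also called in +/1013 mice (0.98, SE 0.28), and 0 of 4 in 1013/1013 mice. In all 4 comparisons of a mutant with WT, 0 genes of these 6 lists were called.

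Markers of other cells behaved as follows between WT SSCs and OPCs. Of the sorting markers, Ly6a (6.80, SE 1.12) and Pdgfra (1.85, SE 0.29) were called higher in SSCs and 0 of 7 lower. All 12 osteoblast markers were called lower, Col1a1 by -4.80 (SE 0.53). Of 20 leukocyte and 8 erythroid markers 0 were called, of 10 endothelial markers 1 was called higher (Erg, 2.20, SE 0.60) and of 10 mural markers 2 were called lower (Des, -3.93, SE 0.97, and Mcam, -2.20, SE 0.67).

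Exons of 5 of the 10 genes overlap an antisense gene, Ebf2 (6.12% of its exon length), Ebf3 (3.85%), Il7 (1.85%), Angpt1 (14.2%) and Vcam1 (0.69%), and since the kit does not mark strand, reads of the pair cannot be told apart there.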

How the data were processed

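The deposited values used here are counts per gene, which the authors made from paired-end SMART-Seq v4 libraries (12 PCR cycles, Nextera XT) by removing reads under 50 bp, aligning to mm10 with STAR and counting with HTSeq. The versions, annotation and HTSeq settings are not given in the sources used here, and FastQC and DESeq2 are further tools in the submitters' processing notes. Of 55335 identifiers, 55154 matched GENCODE M21 without their version, and the other 181 held at most 0.002% of a library. Reads that HTSeq assigned to no single gene were left out of library sizes, and those on no gene were 1.15% to 2.62% of the total in OPCs and 1.50% to 4.15% in SSCs.

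Fits used edgeR 4.0.16 in R 4.3.3 (filterByExpr, TMM normalization, glmQLFit with legacy = TRUE), 1 fit per cell type for genotypes and 1 over all 17 libraries for cell types and interactions, 11 comparisons in all, without covariates. Calls needed an adjusted p (Benjamini-Hochberg) under 0.05 and a 1.5-fold change, the thresholds of the study's methods. SEs are the log2 fold change over the square root of F. TMM factors were 0.734 to 1.02 in OPCs and 1.06 to 1.42 in SSCs. Levels had been planned as plain CPM and are printed on the TMM scale of the tests, with plain CPM as the alternative. TPM used the union of exons. The 10 genes were named throughout, with up to 3 called rises and falls per list of at least 1 mean CPM. The 10 genes and the 13 lists (the 10 themselves, reticular cell, niche factor, receptor or ligand, lymphotoxin, leptin receptor, transcription factor partner, sorting, osteoblast, leukocyte, erythroid, endothelial and mural) were chosen with earlier results of these data known. The alternatives were DESeq2 1.42.0, bias-adjusted quasi-likelihood, other scalings and filters, other sets of libraries, a replicate block, each library left out in turn and, added after the data were seen, leaving out the 3 leukocyte-rich libraries (over 10000 CPM). The scripts were tested on simulated counts. No replicate pair agreed within sampling noise.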

Additional observations from a re-analysis of the deposited data

How the results depend on the processing

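Lepr, Ebf1 and Ebf2 stayed higher in SSCs in each genotype under every alternative that tested them. With at least 10 counts in every library 8 of the 10 were tested, and Ebf2 and Il7 had no value. The other calls lost were Ebf2 and Angpt1 in WT without the leukocyte-rich libraries, Lepr in 1013/1013 mice when the fit held only the groups compared, and Angpt1 in +/1013 mice in 4 of 6 fits with a library left out. The number of the 10 genes called changed by more than 1.5 times in few settings. It was 2 in WT without the leukocyte-rich libraries (4 as reported, 4 or 5 in the others), and in 1013/1013 mice 6 by DESeq2, 6 by bias-adjusted quasi-likelihood and 5 of 8 with at least 10 counts in every library (3 as reported, 2 to 4 in the others). Over all genes, the WT setting called 1020 of 19085. The 3 settings in 1013/1013 mice called 4736 of 20238, 3598 of 20238 and 2802 of 10144. In SSCs of +/1013 against WT the number of the 10 called was 1 by DESeq2 (0 otherwise), against 1302 of 17659 genes. With each library left out in turn it ranged from 0 to 1 in SSCs of 1013/1013 against WT, of 1013/1013 against +/1013 and for the interaction of the 1013/1013 effect, each time called without 1013/1013 SSC replicate 2 (Il7, Il7 and Kitl), which leaves 1 library that is assumed to vary like the other groups. The log2 fold change of Angpt1 in +/1013 against WT SSCs ranged from -0.31 to 1.47 with a library left out, below 0 without WT replicate 1 or 2. Calls over all genes also rose in the fits without 1013/1013 SSC replicate 2. The cause of these shifts was not tested.

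Over all genes, calls depended on the method far more. Between SSCs and OPCs they ran from 1020 to 3833 in WT (2308 as reported), from 1469 to 4275 in +/1013 (2521) and from 511 to 4736 in 1013/1013 mice (2642), highest by DESeq2. In OPCs they ran from 0 to 58 in +/1013 (0), from 0 to 42 in 1013/1013 against WT (1) and from 0 to 59 against +/1013 (0). In SSCs they ran from 0 to 1302 in +/1013 (13), from 0 to 2931 in 1013/1013 against WT (0) and from 0 to 1812 against +/1013 (0), the last 2 highest without 1013/1013 replicate 2. The interactions ran from 0 to 432 (17) and from 0 to 1960 (31).

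Libraries with the same replicate number did not deviate together throughout. The 3 OPC libraries numbered 1 correlated at 0.0995 to 0.242, but over all numbers correlations ranged from -0.208 to 0.242 in OPCs and -0.0709 to 0.0958 in SSCs, so the numbers were not taken to pair the samples. With the replicate block, 4, 4 and 3 of the 10 were called between cell types in WT, +/1013 and 1013/1013 mice and 0 in every other comparison, as without it. Over all genes, the block left 2042, 2270 and 2063 calls between cell types, 0 in each genotype comparison and 0 and 19 for the interactions. Depth limits Il7, Ebf2 and Ebf3 in OPCs most, where libraries held as few as 0, 9 and 11 counts. With 2 or 3 pools per group, a difference that missed the threshold is not shown to be absent.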
